A study of Mus musculus with 36 samples.

Results

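The HOX genes were followed through all 3 bulk RNA-seq experiments of the BMP4-induced primed-to-naïve transition (BiPNT), in which mouse epiblast stem cells (EpiSCs) are returned to the naïve state. The members were chosen by symbol alone, as a letter from a to d for the cluster and a paralogue number, which gave 38 genes, 10 in *Hoxa*, 10 in *Hoxb*, 9 in *Hoxc* and 9 in *Hoxd*, of the 29267 genes listed for EpiSCs, BV+SC+ cells and unsorted Day 3 cells and the 50600 listed for the sorted Day 3 cells. EpiSCs (3 libraries) were kept feeder-free in N2B27 medium with Activin A, bFGF and XAV939, and their labels name passages or a culture code, not separate lines. All other cells started from EpiSCs. Stage 1 of BiPNT is iCD1 medium (vitamin C, bFGF, LiCl, LIF and CHIR99021) with BMP4, the EZH2 inhibitor EPZ6438 and a DOT1L inhibitor. On Day 3 of stage 1, cells were sorted by the surface receptor c-Kit into c-Kit+ and c-Kit- cells (2 libraries each), or were sequenced unsorted with and without the DOT1L inhibitor SGC0946 (1 library each). Labels of these unsorted cells repeat the protocol of the BV+SC+ cells, so they do not give the other compounds present, EPZ5676 among them. The paper describes the unsorted cells as with or without DOT1L inhibitor, and names SGC0946 as that inhibitor. BV+SC+ cells (2 libraries) carry reporters for *Prdm1* (Blimp1-mVenus) and *Dppa3* (Stella-ECFP), had EPZ5676 as the DOT1L inhibitor, and were sorted as double positive on Day 6. The protocol given for them has 3 days after stage 1 (stage 2) in N2B27 with 2i and vitamin C. The BV+SC+ libraries carry different notes, 2iJi on replicate 1 and GK15 on replicate 2. The paper tried GK15 as another culture condition at stage 2 and, in a separate experiment, added a JAK inhibitor there. The main text of the paper does not say what 2iJi stands for. The 2 libraries may therefore differ in medium. The note and the replicate cannot be told apart. The study used embryo-derived EpiSCs with the ΔPE-*Oct4*-GFP transgene and, for BV+SC+ cells, a separate EpiSC line made from reporter ESCs. The labels do not say which line the sequenced EpiSCs were, so in the comparison of BV+SC+ cells with EpiSCs a difference between lines and the treatment cannot be told apart. Nothing in the labels says that libraries of a group came from separate derivations, so p-values measure only the spread between these libraries, which may be technical.

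HOX genes encode homeodomain transcription factors that give cells their position along the head-to-tail axis. In each cluster the genes lie in the order of their paralogue numbers, and in the gastrulating embryo low numbers open first and anteriorly while high numbers open later and more posteriorly. Caudal (CDX) factors, WNT, BMP and retinoic acid are known inputs, PBX and MEIS proteins are the usual DNA-binding partners, Polycomb proteins such as EZH2 keep the clusters silent in pluripotent cells, and DOT1L methylates histone H3 on lysine 79 in transcribed genes. Germ cell precursors are known for shutting HOX genes off.

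Promoter sequence from RefSeq on GRCm38.p6 was matched for 22 of the 38 genes (24 starts), as the 250 bases before each start. Because *Cdx2* moved with the HOX genes below, these windows were searched on both strands for CNATAAA, a form of the caudal motif, whose reverse complement is TTTATNG. It lay in 2 of the 24 HOX windows (8.33%) and in 9.81% of 32851 windows of all genes, so the share in HOX windows was not above that of all genes. *Hoxb8* held 3 matches, which only 16 of all windows (0.049%) reached or passed, at 199, 120 and 110 bases before the start, and *Hoxd4* held 1, at 45 bases before. The windows of these genes are printed with the motif in capitals, beside those of *Hoxa9*, among the highest HOX genes on Day 3, and *Hoxd12*, which had no count in any library. All are written 5′ to 3′ on the strand of the gene.
*Hoxb8*, chr11:96281655-96281904, plus strand: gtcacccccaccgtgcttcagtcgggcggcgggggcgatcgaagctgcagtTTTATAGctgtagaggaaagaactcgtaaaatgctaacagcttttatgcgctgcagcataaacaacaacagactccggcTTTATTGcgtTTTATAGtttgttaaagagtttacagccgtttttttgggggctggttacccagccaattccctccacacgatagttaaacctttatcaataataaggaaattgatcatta
*Hoxd4*, chr2:74721728-74721977, plus strand: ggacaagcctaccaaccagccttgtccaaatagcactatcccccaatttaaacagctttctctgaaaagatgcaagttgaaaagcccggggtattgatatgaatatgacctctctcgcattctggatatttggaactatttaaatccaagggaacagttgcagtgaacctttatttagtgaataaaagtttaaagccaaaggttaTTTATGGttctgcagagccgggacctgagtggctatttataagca
*Hoxa9*, chr6:52227371-52227620, minus strand: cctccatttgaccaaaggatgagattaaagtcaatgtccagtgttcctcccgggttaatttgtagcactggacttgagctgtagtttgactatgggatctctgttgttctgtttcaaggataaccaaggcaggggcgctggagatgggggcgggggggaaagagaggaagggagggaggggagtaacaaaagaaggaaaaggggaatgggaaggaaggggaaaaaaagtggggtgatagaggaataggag
*Hoxd12*, chr2:74674763-74675012, plus strand: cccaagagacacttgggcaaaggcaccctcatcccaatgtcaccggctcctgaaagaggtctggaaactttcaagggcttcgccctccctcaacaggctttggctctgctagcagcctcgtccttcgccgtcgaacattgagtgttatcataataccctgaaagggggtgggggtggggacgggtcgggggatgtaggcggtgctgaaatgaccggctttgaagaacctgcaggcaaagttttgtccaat
The printed windows share no annotated exon, and a match or its absence describes only these letters.

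HOX transcripts were near zero in EpiSCs and in 1 of the 2 BV+SC+ libraries, low in c-Kit- cells, higher in c-Kit+ cells and highest in unsorted Day 3 cells. Levels are given as TPM, an abundance scaled to gene length and library size, and in counts, the fractional read numbers that RSEM assigns to a gene, and a library counts as over the floor for a gene with more than 3 counts. The summed HOX level was 2.18, 2.9 and 2.59 TPM in the EpiSC libraries, 16.4 and 2.46 TPM in BV+SC+ cells, 47.1 and 37.6 TPM in c-Kit- cells, 156 and 135 TPM in c-Kit+ cells, 618 TPM on Day 3 with SGC0946 and 1612 TPM without it. The number of members over the floor ran in the same order of libraries from 1, 1 and 0 to 19 and 2, to 8 and 5, to 13 and 16, and to 31 and 33 of 38. Depth differed between experiments, from 1726038 to 1841442 counts in sorted cells, 2444211 to 3070115 in EpiSCs, 14778809 and 18099059 in BV+SC+ cells, and 4776143 and 4577685 in the Day 3 libraries with and without SGC0946. A count of 0 therefore allows up to 1.74 CPM (counts scaled to library size alone) in sorted cells, 1.23 in EpiSCs, 0.203 in BV+SC+ cells and 0.655 in unsorted Day 3 cells, as limits that cover counting error only. The sorted cells were sequenced as mRNA and the others as total RNA without ribosomal RNA, so levels across these sets stand side by side without a test. In bulk RNA, fewer HOX-expressing cells and less HOX RNA per cell cannot be told apart.

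**Figure D1:**
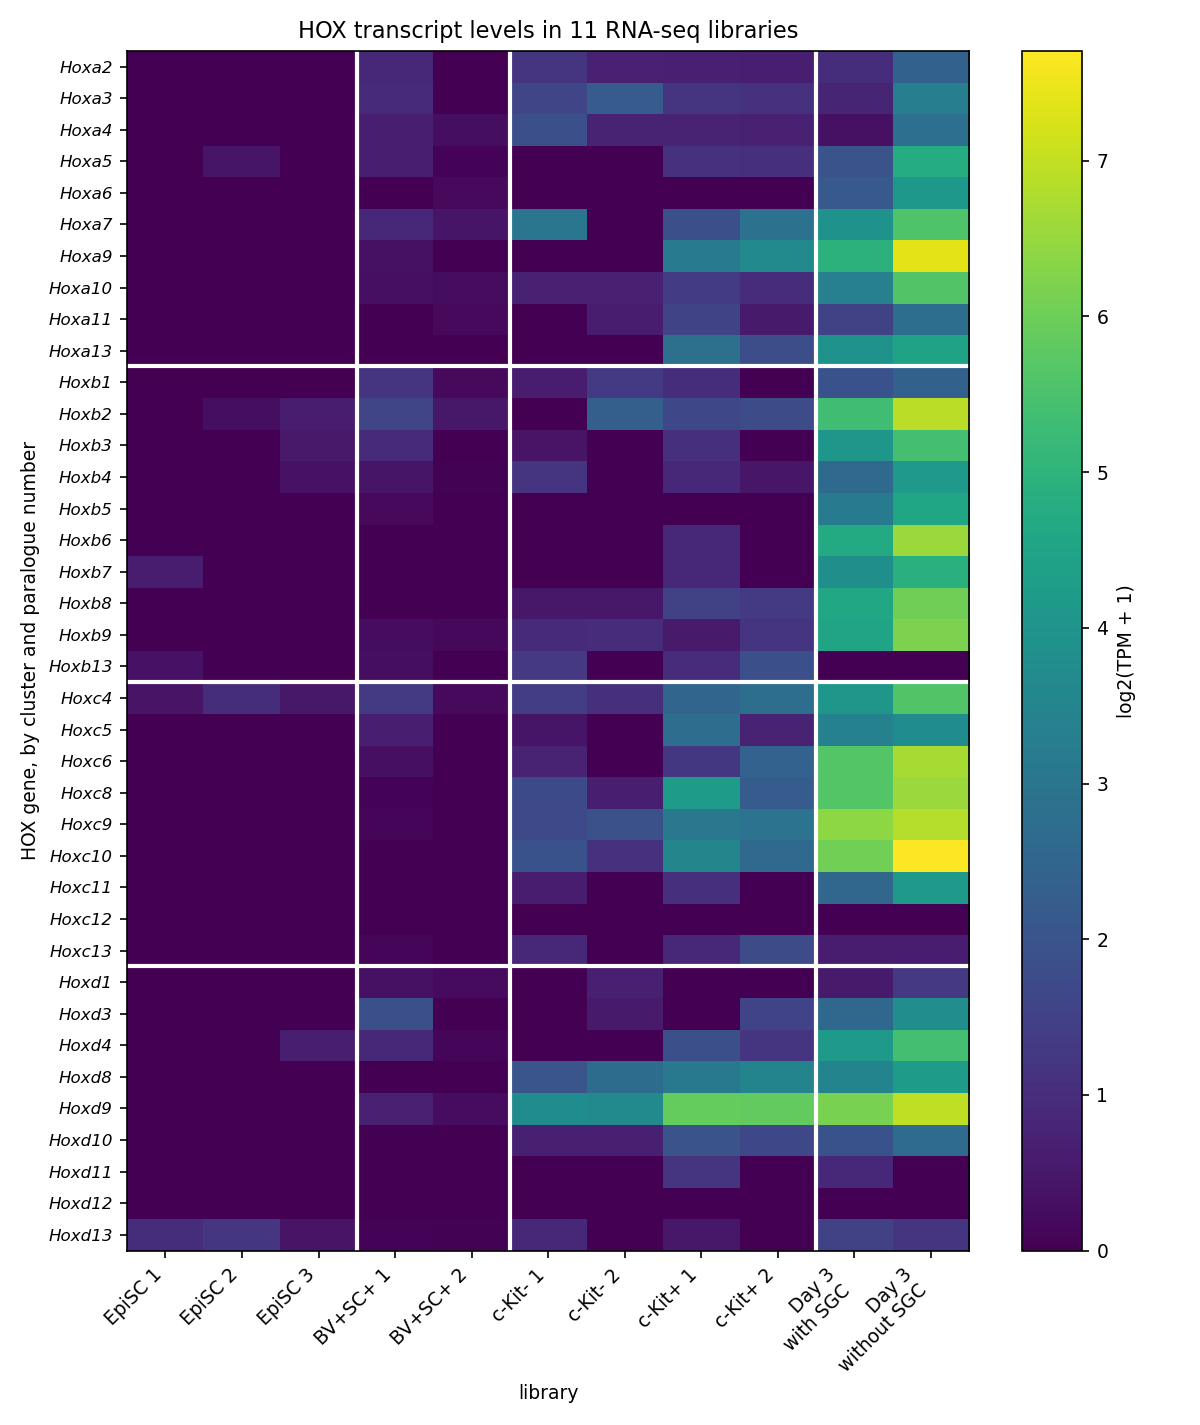
Heat map of log2(TPM + 1) for the 38 HOX genes (rows, by cluster and paralogue number) in the 11 libraries (columns, white lines between experiments). The 3 EpiSC libraries are near 0 throughout, *Hoxd9* is the brightest row in the sorted cells, and the Day 3 library without SGC0946 is brightest across all 4 clusters.

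In EpiSCs, 29 of the 38 members had no count in any library and 37 stayed at or under the floor in all 3. The exception was *Hoxd13*, the terminal gene of the *Hoxd* cluster with a role in digits and genitalia, with 4, 5 and 1 counts (1.02, 1.33 and 0.32 TPM). *Hoxc4* followed with 1, 3 and 1 counts (0.33, 1 and 0.42 TPM) and *Hoxb2* with 0, 1 and 1. No cluster passed 1.33 TPM in its sum in any EpiSC library. Markers of the primed epiblast (5 genes) summed to between 1074 and 1153 TPM in the same libraries, and those of pluripotency to between 2355 and 2384 TPM.

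In sorted Day 3 cells, HOX transcripts were more abundant in c-Kit+ cells, and the posterior *Hoxd9* led in both populations. *Hoxd9*, a trunk and limb patterning gene, had 116 and 124 counts (57.6 and 57.2 TPM) in c-Kit+ cells and 25 and 23 counts (12.5 and 11.7 TPM) in c-Kit- cells. The populations did not overlap, and the replicates of each nearly coincided. *Hoxd9* was higher in c-Kit+ cells by 2.38 ± 0.22 on the log2 scale (SE, edgeR quasi-likelihood test, adjusted p = 4.1e-05). Its neighbour *Hoxd8* had 19 and 25 counts (7.59 and 10.2 TPM) against 5 and 9 (3.07 and 5.6 TPM), again without overlap, a rise of 1.69 ± 0.48 (edgeR adjusted p = 0.018). *Hoxc9*, the paralogue of *Hoxd9* in the *Hoxc* cluster, had 17 and 16 counts (7.56 and 6.61 TPM) against 5 and 6 (2.25 and 2.73 TPM), a rise of 1.63 ± 0.49 (edgeR adjusted p = 0.025). These 3 were all the members that passed the filter on low counts, which they could pass through the c-Kit+ libraries alone, and all 3 were called higher at an unadjusted p under 0.05 with over 2-fold change, where 10.8% of the 11018 genes tested were called higher and 13.6% lower. The calls of *Hoxd9*, *Hoxd8* and *Hoxc9* also held on adjusted p, where 9.98% of genes were called higher and 12.9% lower. None of the 3 was called lower by edgeR or by DESeq2. *Hoxc9* lost its call in DESeq2 (adjusted p = 0.2), and in edgeR without c-Kit- replicate 1 (adjusted p = 0.12), c-Kit+ replicate 1 (0.2) or c-Kit+ replicate 2 (0.15). *Hoxd8* lost its call in edgeR without c-Kit+ replicate 2 (adjusted p = 0.16).

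Below that filter the counts were small. Over all 38 members, *Hoxd9*, *Hoxd8* and *Hoxc9* included, the mean normalised CPM was higher in c-Kit+ cells for 29 and lower for 5, and 4 had no count, while over all 18954 genes with a count it was higher for 52.8% and lower for 47.2%. Of 21 members over the floor in at least 1 sorted library, 19 were over it in a c-Kit+ library and 9 in a c-Kit- library, so that most entered through c-Kit+ cells. On normalised CPM, 14 of the 21 separated without overlap with c-Kit+ cells on top (35.1% of all genes over the floor did so), the 3 tested genes among them, and *Hoxa3* with c-Kit- cells on top (32.8% of all genes). *Hoxa11* and *Hoxc13*, among the 14, overlapped in TPM and tied in counts between 1 library of each population. *Hoxa9*, a posterior gene of trunk and blood progenitors, had 9 and 17 counts (8.18 and 11.6 TPM) in c-Kit+ cells and none in c-Kit- cells, which makes it at least 4.49-fold higher against a floor of 3 counts per library. *Hoxa13*, the terminal gene of the *Hoxa* cluster, had 7 and 4 counts against none, at least 1.93-fold higher. *Hoxc4* had 9 and 12 counts against 3 and 2, a ratio of 4.39 (95% counting interval 1.61 to 14.9), and *Hoxc10*, a lumbar-level gene, had 19 and 10 against 5 and 2 (4.33, 1.86 to 11.7). *Hoxc8*, a thoracic-level gene, was uneven within c-Kit+ cells, with 32 counts (17.6 TPM) in replicate 1 and 7 (3.71 TPM) in replicate 2, against 4 and 1 in c-Kit- cells. *Hoxa7*, the third highest member in the mean of c-Kit- cells, rested on 1 library there, with 5 and 0 counts (7.08 and 0 TPM) against 2.62 and 9 in c-Kit+ cells. Without the filter, 34 members were tested and 8 were called higher (7.57% of 18880 genes were called higher and 9.75% lower): the 3 above with *Hoxa9* (edgeR adjusted p = 0.00075), *Hoxc8* (0.0073), *Hoxc10* (0.029), *Hoxa13* (0.036) and *Hoxc4* (0.054, over the limit once adjusted). *Hoxa3*, a pharyngeal and neck-level gene, had 3 and 3 counts in c-Kit+ cells and 5 and 9 in c-Kit- cells (ratio 0.448, 95% counting interval 0.141 to 1.24), an interval that includes 1.

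**Figure D2:**
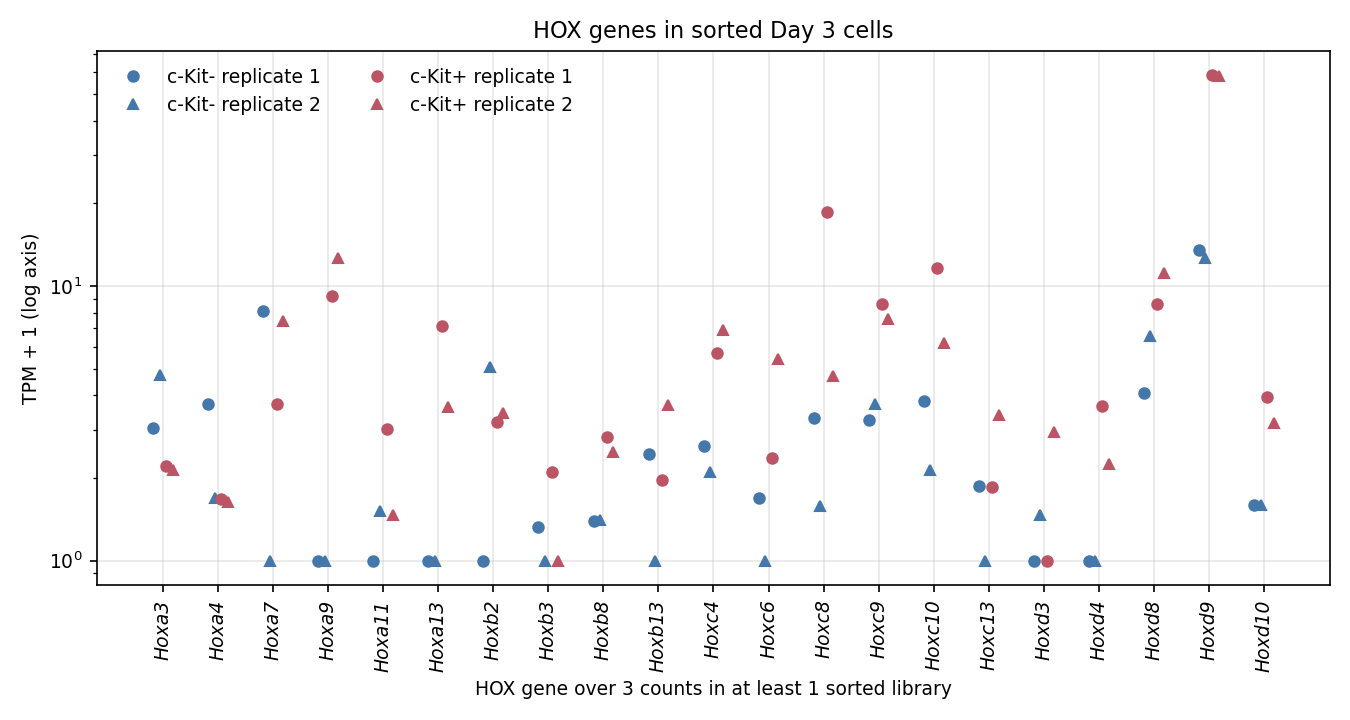
TPM + 1 (log axis) of the 21 HOX genes with over 3 counts in at least 1 sorted library, by cluster and paralogue number, with circles for replicate 1 and triangles for replicate 2 of c-Kit- (blue) and c-Kit+ (red) cells. *Hoxd9* stands apart at 57.6 and 57.2 TPM in c-Kit+ cells and 12.5 and 11.7 TPM in c-Kit- cells, and *Hoxc8* shows the uneven c-Kit+ replicates.

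By cluster, *Hoxd* held the most HOX RNA in c-Kit+ cells, with 72.5 and 72.7 TPM, or 46.4% and 53.7% of the summed level, and *Hoxb* the least, with 10.1 and 8.29 TPM (6.4% and 6.1%). *Hoxc* reached 49.4 and 28.9 TPM and *Hoxa* 24.2 and 25.5 TPM. In c-Kit- cells the sums were 17.1 and 18.9 TPM for *Hoxd*, 11.4 and 5.55 for *Hoxc*, 13.7 and 6.21 for *Hoxa*, and 4.87 and 6.9 for *Hoxb*. The sums of *Hoxa*, *Hoxb*, *Hoxc* and *Hoxd* were each higher in both c-Kit+ libraries than in either c-Kit- library. By position, paralogue numbers 9 to 13 made up 65.1% and 68.9% of HOX TPM in c-Kit+ cells and 49.9% and 48.6% in c-Kit- cells. Numbers 1 to 3 made up 3.9% and 4.5% against 8.7% and 29.1%, on 13.3 and 13.9 counts against 9 and 19. The sums of numbers 1 to 3 overlapped, at 6.15 and 6.09 TPM in c-Kit+ cells against 4.11 and 11 TPM in c-Kit- cells. *Hoxd9* alone was 36.9% and 42.2% of HOX TPM in c-Kit+ cells and 26.6% and 31.1% in c-Kit- cells. Paralogue group 9 as a whole was 47.2% and 56.7% in c-Kit+ cells. *Hoxd9* thus supplied most of the group, with *Hoxa9* and *Hoxc9* next and *Hoxb9* at 1 and 3 counts.

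Markers of other cells moved with the c-Kit sort. Trophoblast markers summed to 4669 and 4347 TPM in c-Kit- cells and 1197 and 1063 TPM in c-Kit+ cells, with 5 of 7 called lower in c-Kit+ cells. Fibroblast markers summed to 182 and 141 TPM against 59.3 and 45.4 TPM, with 4 of 6 called lower, and *Postn* was at 0 in 1 library of each population. Mesoderm markers summed to 554 and 438 TPM against 258 and 266 TPM, but they divided: *Hand1*, of extraembryonic and lateral mesoderm, was called lower and *T* (Brachyury), of the primitive streak and posterior mesoderm, higher, at 151 and 187 TPM in c-Kit+ cells and 0 and 0.53 TPM in c-Kit- cells. *Mesp1*, *Msgn1* and *Foxf1* were at 0 in all 4 sorted libraries. Of 4 neural markers, *Sox1*, *Pax6* and *Neurog2* were at 0 in both c-Kit- libraries, and *Tubb3* stood at 356 and 291 TPM in c-Kit- cells and 25.1 and 24.9 TPM in c-Kit+ cells. Pluripotency markers summed to 207 and 181 TPM in c-Kit- cells and 1877 and 1880 TPM in c-Kit+ cells, with all 5 called higher, and germ cell markers to 189 and 174 TPM against 490 and 420 TPM, with 4 of 6 called higher. The part of any of these cell types in the HOX difference was not tested.

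In BV+SC+ cells of Day 6 the 2 libraries went apart, and no HOX gene passed the filter for a test against EpiSCs, where 17.2% of 11792 genes were called higher and 17.8% lower. Replicate 1 (2iJi) had 263 HOX counts, or 17.8 CPM (95% Poisson interval 15.7 to 20.1), and replicate 2 (GK15), the deeper library, had 42, or 2.32 CPM (1.67 to 3.14). The replicates also differed across all genes: with every library thinned to 1726019 counts, chi-square divided by its degrees of freedom was 6.96 for this pair and 1.67 to 4.33 for the other pairs of replicates. In replicate 1 the leading genes were anterior. *Hoxd3*, of the neck vertebrae, had 42.1 counts (2.71 TPM) there and none in replicate 2. *Hoxb2*, a hindbrain gene, had 27 counts (2.08 TPM) and 8.57 (0.41 TPM). *Hoxc4* had 24 (1.5 TPM) and 3 (0.15 TPM). *Hoxb3*, *Hoxb1* and *Hoxa3*, all hindbrain and pharyngeal genes, had 21.1, 20 and 18 counts in replicate 1 and 0, 3 and 0 in replicate 2. Paralogue numbers 1 to 3 held 54.4% of HOX TPM in replicate 1 and numbers 9 to 13 held 11.2%. In replicate 2 these shares were even, at 29.7% and 28.5%, on 14.6 and 14 counts. In the c-Kit+ libraries, sequenced as mRNA, numbers 1 to 3 held 3.9% and 4.5%, and numbers 9 to 13 held 65.1% and 68.9%.

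Against EpiSCs, BV+SC+ levels mostly lay where the shallower EpiSC libraries could not see them, since 3 counts in an EpiSC library are worth 0.977 to 1.23 CPM. *Hoxd3*, at 0 in all 3 EpiSC libraries, was at least 1.29-fold higher in the mean of BV+SC+ cells, which rests on replicate 1 alone. *Hoxb2* was 4.63-fold higher (95% counting interval 1.19 to 39.7, 36 counts against 2), and by library it was 7.52-fold higher in replicate 1 (1.89 to 65.2) and 2.15-fold in replicate 2 (0.446 to 20.5, an interval that includes 1). On normalised CPM, of 20 members over the floor in at least 1 library, 8 were higher in BV+SC+ cells without overlap (38.2% of all genes were), of which *Hoxb2* overlapped in TPM, and *Hoxd13* was lower without overlap (28.0% of all genes were). *Hoxd13* had 1 and 1 counts in BV+SC+ cells, a ratio to EpiSCs of 0.0515 (95% counting interval 0.00548 to 0.242). Without the filter on low counts, edgeR called *Hoxd3* (adjusted p = 0.0048), *Hoxb1* (0.057) and *Hoxa3* (0.1) higher and *Hoxd13* (0.037) lower, from 28 members tested, where 15.8% of genes were called higher and 12.3% lower. A fit over all 7 libraries called *Hoxd9* (0.084) higher and *Hoxd13* (0.02) lower, from 32 tested, where 17.9% of genes were called higher and 16.6% lower. The shares of members called lay below these shares of all genes. *Hoxd13* was therefore the only member called lower in both of these alternatives, and the members called higher were not shared by them. The 6 germ cell markers, among them the reporter genes *Prdm1* and *Dppa3*, summed to 1689 and 1775 TPM in the 2 libraries and to between 7.29 and 8.42 TPM in EpiSCs. Beside HOX, replicate 1 had more *T* (13.8 against 1.38 TPM), *Cdx1* (7.28 against 1.67), *Cdx2* (4.77 against 0.37) and *Meis2* (50.3 against 7.22 TPM) and a higher trophoblast sum (153 against 56.3 TPM). The mesoderm list as a whole was alike (29.3 against 25.1 TPM), with *Tbx4* at 14.3 against 22 TPM, and primed epiblast markers were lower in replicate 1 (24.2 against 95.6 TPM). The part of these in the HOX level was not tested.

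**Figure D3:**
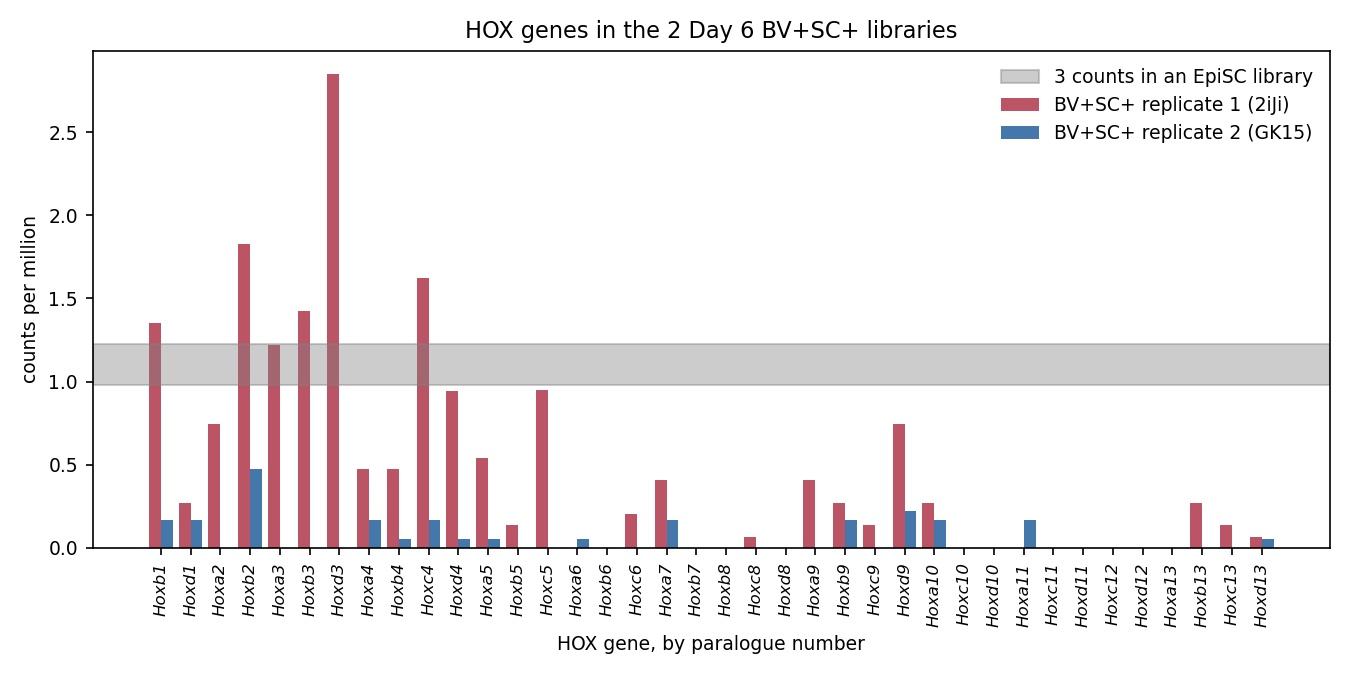
CPM of the 38 HOX genes in BV+SC+ replicate 1 (red) and replicate 2 (blue), by paralogue number, with a grey band for 3 counts in an EpiSC library (0.977 to 1.23 CPM). *Hoxd3*, *Hoxb2*, *Hoxc4*, *Hoxb3* and *Hoxb1* rise over the band in replicate 1, and every bar of replicate 2 stays under it.

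On Day 3 without sorting, all 4 HOX clusters were transcribed. Without SGC0946, 31 of the 32 members tested were called higher than in EpiSCs and none lower, where 12.5% of 13688 genes were called higher and 8.93% lower. With SGC0946, 28 of 32 were called higher and none lower, against 12.9% and 6.82% of genes. The 2 comparisons share the EpiSC libraries. The Day 3 libraries are single, so the test assumes that they vary like the other groups, and members passed the filter through the Day 3 libraries. On adjusted p the members called higher were 27 without SGC0946 (9.11% of all genes higher, 6.44% lower) and 21 with it (8.52% and 4.68%), and DESeq2 on unadjusted p called 26 and 21, with no member lower in any of these. By cluster the calls without SGC0946 were 10 of 10 in *Hoxa*, 9 of 9 in *Hoxb*, 7 of 7 in *Hoxc* and 5 of 6 in *Hoxd*, where *Hoxd13* was not called (log2 fold change 0.29, edgeR adjusted p = 0.89). With SGC0946 they were 7 of 10, 9 of 9, 7 of 7 and 5 of 6. *Hoxa2*, *Hoxa3* and *Hoxa4* were the members called without the inhibitor and not with it, at 4, 4.61 and 1 counts with it, a difference between calls that was not tested. Without SGC0946, *Hoxa2* and *Hoxa3* also lost their call in DESeq2 and on adjusted p (edgeR, 0.12 and 0.056), and *Hoxa2* lost it without any 1 of the EpiSC libraries. Among the 29 members at 0 in all EpiSC libraries, 25 had a lower bound of the fold above 1 without SGC0946, from 1.14 for *Hoxd1* to 168 for *Hoxc10*, with a median of 18, and 21 had one with SGC0946, from 1.07 for *Hoxa6* to 83.1 for *Hoxc9*, with a median of 9.81.

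The highest member without SGC0946 was *Hoxc10* at 208 TPM (885 counts), followed by *Hoxa9* at 167 TPM (662 counts) and *Hoxd9* at 125 TPM (605 counts). All of them were at 0 in every EpiSC library, and their adjusted p by edgeR was 0.00026, 0.001 and 0.00036. *Hoxb2* came next at 119 TPM, 380-fold above EpiSCs on 442 counts against 2 (95% counting interval 105 to 3150). *Hoxc9* and *Hoxc6* stood at 114 and 102 TPM. With SGC0946 the leading members were *Hoxc9* (82.4 TPM, 466 counts), *Hoxd9* (70.9 TPM, 363 counts) and *Hoxc10* (65.5 TPM, 296 counts), at least 83.1-fold, 64.8-fold and 52.8-fold above EpiSCs. Without SGC0946 the *Hoxc* cluster held 594 TPM or 36.8% of the total, *Hoxb* 462 TPM or 28.7%, *Hoxa* 350 TPM or 21.7%, and *Hoxd* 206 TPM or 12.8%, so that *Hoxd*, first in c-Kit+ cells, was last, and *Hoxb*, last in c-Kit+ cells, was second. With SGC0946 *Hoxc* (276 TPM, 44.7%) and *Hoxb* (155 TPM, 25.1%) again led, and *Hoxa* (77.7 TPM, 12.6%) was last, after *Hoxd* (109 TPM, 17.6%). Markers of other cells also differed from EpiSCs on Day 3: trophoblast markers summed to 1665 TPM with and 2003 TPM without SGC0946 (28.6 to 49.6 TPM in EpiSCs), mesoderm markers to 530 and 673 TPM (1.28 to 4.57 TPM), fibroblast markers to 313 and 305 TPM (23.3 to 37 TPM), and pluripotency markers to 841 and 152 TPM (2355 to 2384 TPM). Among the defining genes, *Elf5* of trophoblast was at 0 without SGC0946, and *Mesp1* and *Msgn1* of mesoderm were at 0 in both, while *Hand1*, *Tbx4*, *Foxf1* and *Kdr* were called higher than in EpiSCs in both comparisons and *T* with SGC0946. The part of these in the HOX levels was not tested.

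Along the clusters, levels on Day 3 without SGC0946 did not follow paralogue number evenly. In *Hoxa* they went from 4.23 TPM for *Hoxa2* to 167 TPM for *Hoxa9*, then down to 47.7 for *Hoxa10* and 5.93 for *Hoxa11*, with *Hoxa13* at 20.5. In *Hoxb* the hindbrain gene *Hoxb2* (119 TPM) and the trunk genes *Hoxb6* (91.7), *Hoxb9* (72.5) and *Hoxb8* (64.9) stood above *Hoxb1* (4.26), *Hoxb4* (17.1) and *Hoxb5* (22.3). *Hoxb13*, which lies apart from the rest of its cluster, had no count in either unsorted Day 3 library and up to 6 counts in a c-Kit+ library. In *Hoxc*, *Hoxc6* to *Hoxc10* held 91.8 to 208 TPM, apart from *Hoxc5* at 12.4 and *Hoxc4* at 47.9, and the level dropped to 16.8 TPM at *Hoxc11*, 0 at *Hoxc12* and 0.53 at *Hoxc13*. In *Hoxd*, *Hoxd9* stood over *Hoxd4* (41.2), *Hoxd8* (18.3), *Hoxd3* (12.8) and *Hoxd10* (5.47), and *Hoxd11* and *Hoxd12* had no count (*Hoxd11* had 2 with SGC0946). Paralogue group 12, *Hoxc12* and *Hoxd12*, was at 0 counts in all 11 libraries, and group 11 was under 23 TPM in every library.

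**Figure D4:**
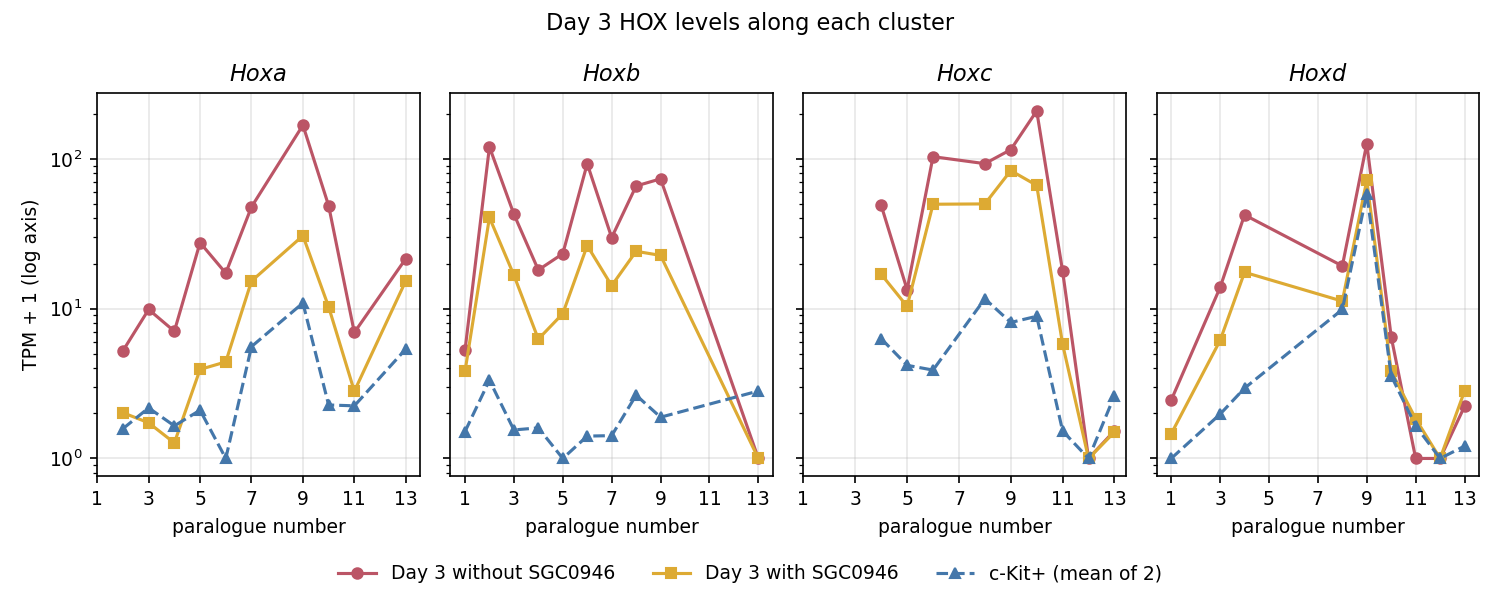
TPM + 1 (log axis) along each HOX cluster by paralogue number for Day 3 without SGC0946 (red circles), Day 3 with SGC0946 (yellow squares) and the mean of 2 c-Kit+ libraries (blue triangles). The *Hoxb* line of c-Kit+ cells stays low, while each *Hoxd* line peaks at *Hoxd9*, at 125, 70.9 and 57.4 TPM.

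Paralogue group 9 was the largest of the 13 groups in all sorted and unsorted Day 3 libraries, but its members were ordered differently. Without SGC0946 it held 479 TPM, 29.7% of HOX TPM, in the order *Hoxa9* (167), *Hoxd9* (125), *Hoxc9* (114) and *Hoxb9* (72.5). With SGC0946 it held 205 TPM (33.1%), in the order *Hoxc9* (82.4), *Hoxd9* (70.9), *Hoxa9* (29.7) and *Hoxb9* (21.7). In c-Kit+ cells *Hoxd9* (57.4 ± 0.262 TPM, SD, n = 2) stood above *Hoxa9* (9.91 ± 2.44), *Hoxc9* (7.09 ± 0.672) and *Hoxb9* (0.47 and 1.3), and the means of *Hoxa9* and *Hoxc9* differed by little more than the SD of *Hoxa9*. Across the 38 members, Spearman's rho of the mean TPM was 0.95 between the 2 unsorted Day 3 libraries, 0.61 and 0.57 between c-Kit+ cells and Day 3 with and without SGC0946, 0.51 between c-Kit+ and c-Kit- cells, 0.22 and 0.25 between c-Kit- cells and Day 3, and 0.05 and 0.13 between BV+SC+ cells and Day 3. These describe order among genes that share libraries and are not independent.

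Set beside the sorted cells on the 28910 genes that both lists hold, the unsorted Day 3 levels had their highest ratio in *Hoxb*. The HOX sum was 7.46 times the highest sorted library without SGC0946 and 2.86 times with it. By cluster these ratios were 33.3 and 11.2 for *Hoxb*, 9.75 and 2.17 for *Hoxa*, 8.69 and 4.04 for *Hoxc*, and 2.02 and 1.06 for *Hoxd*. Members more than 2-fold above the highest sorted library, on TPM + 1, were 23 of 36 without SGC0946 (5.22% of all genes) and 15 of 35 with it (4.84%). The *Hoxb* genes *Hoxb2* to *Hoxb9* were 8 of these in both libraries. None was more than 2-fold below all sorted libraries, where 3.66% of all genes were without SGC0946 and 2.59% with it. On TPM + 1, a gene at or under 1 TPM in any sorted library could not be. Sorting, the RNA kit, the gene list and the compounds differed together, and cannot be told apart.

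**Figure D5:**
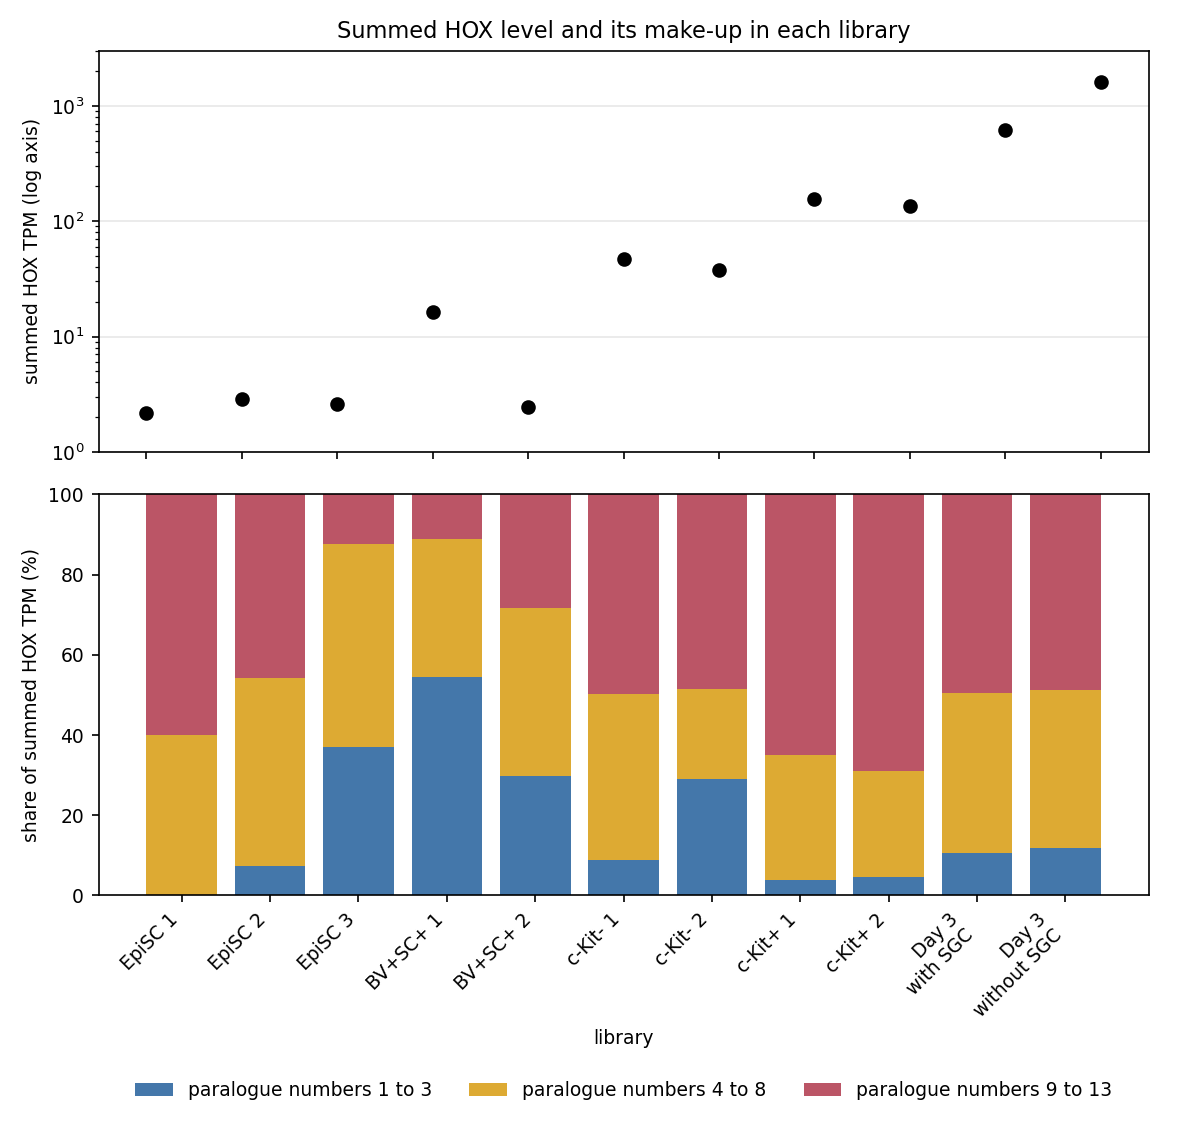
Upper panel, summed TPM of 38 HOX genes in each library (log axis). Lower panel, share of that sum in percent from paralogue numbers 1 to 3, 4 to 8 and 9 to 13; the c-Kit+ bars have the largest share of numbers 9 to 13 on Day 3 (65.1% and 68.9%), BV+SC+ replicate 1 the largest share of numbers 1 to 3 (54.4%), and the EpiSC bars rest on 7, 10 and 6 counts.

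With SGC0946 the order of the members stayed close to that without it, and the size of the difference varied with the cluster. Of 33 members with TPM over 1 in either library, 32 were lower with SGC0946, 23 of them by over 2-fold, where 3.45% of all genes were that much lower and 6.33% that much higher. There is no replicate and no test. The paper had already reported HOX genes of all 4 clusters as downregulated by SGC0946 on Day 3, *Hoxc8* and *Hoxd9* among them. On the log2 scale of TPM + 1 these 2 changed by -0.89 and -0.81, short of 2-fold. The paper normalised and called genes in another way, so the measures are unlike. *Hoxa5*, *Hoxa3* and *Hoxa4* kept 11%, 8.23% and 4.46% of their TPM, while *Hoxc5*, *Hoxc9* and *Hoxa13* kept 75.5%, 72.2% and 69.7%. The first of these shares rest on few counts, with 13, 4.61 and 1 with SGC0946 against 111, 51.8 and 21 without it for *Hoxa5*, *Hoxa3* and *Hoxa4*. *Hoxd13* was the 1 member that was higher, at 11 counts against 7. By position the medians were alike, at -1.35 for numbers 1 to 3, -1.45 for 4 to 8 and -1.30 for 9 to 13 on the log2 scale of TPM + 1, while by cluster they ran from -2.11 for *Hoxa* to -0.78 for *Hoxd*.

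Genes that act with or beside HOX were read from fixed lists. Of 3 caudal factors, *Cdx2* was the 1 that passed the filter in sorted cells, and it was called higher in c-Kit+ cells, at 51.5 and 55.7 TPM against 26.5 and 14.4 TPM (log2 fold change 1.53 ± 0.26, edgeR adjusted p = 0.0015). *Cdx2* was also called higher on Day 3 than in EpiSCs, from 0 in all EpiSC libraries to 53 TPM with and 108 TPM without SGC0946 (at least 51.6-fold and 105-fold). *Cdx2* is also a trophoblast factor, and its level beside the trophoblast markers above was not separated. Of 11 genes beside the clusters, 2 of 7 tested were called higher in c-Kit+ cells and none lower. *Evx1*, the homeobox gene next to *Hoxa13*, had 57.9 and 71.9 TPM in c-Kit+ cells against 2.21 and 9.31 TPM (log2 fold change 3.72 ± 0.37, edgeR adjusted p = 6.9e-05), a larger fitted difference than those of the 3 HOX genes tested, and *Hibadh* was the other. On Day 3, 4 of 10 were called higher than in EpiSCs with and without SGC0946, *Evx1*, *Evx2*, *Smug1* and *Skap2*. *Evx1* stood at 63 TPM with SGC0946 and 56.2 TPM without it, whereas *Hoxa13* beside it stood at 14.3 and 20.5 TPM. In BV+SC+ cells against EpiSCs, 3 of 8 tested were called higher, *Calcoco2*, *Ttll6* and *Skap2*, and none lower.

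Of 8 cofactor genes, *Meis2* was called higher in c-Kit+ cells among 7 tested and none lower. *Meis2* had 28.3 and 40.8 TPM there against 12.8 and 14.2 TPM (log2 fold change 1.5 ± 0.25, edgeR adjusted p = 0.0013). In BV+SC+ cells *Meis2* was called higher than in EpiSCs and *Pbx3* and *Pknox2* lower. *Meis2* was at 0 in all EpiSC libraries and was at least 68.8-fold higher in replicate 1, the library with more HOX RNA, and at least 7.38-fold higher in replicate 2. On Day 3, *Meis1*, *Meis2* and *Meis3* were called higher than in EpiSCs with and without SGC0946, and none of the 8 tested was lower. Of 8 retinoic acid genes, 6 of 8 tested were called higher on Day 3 than in EpiSCs in both comparisons, among them the binding protein *Crabp2*, the receptor *Rarb* and the degrading enzymes *Cyp26a1* and *Cyp26b1*. Between the sorted cells, *Cyp26b1* was lower in c-Kit+ cells (0.76 and 0.68 TPM against 12.7 and 6.54 TPM, edgeR adjusted p = 0.00084) and none of 4 tested was higher. Against EpiSCs, BV+SC+ cells had *Aldh1a2* called higher and *Rarg* lower among 4 tested. Of 8 chromatin regulators of HOX genes, none was called on Day 3 against EpiSCs by edgeR, although 3 of 8 without SGC0946 (*Suz12*, *Kdm6a* and *Eed*) and 1 with it (*Kdm6a*) had an unadjusted p under 0.05 at less than 2-fold, all lower. *Suz12*, a Polycomb subunit, was called higher in c-Kit+ cells (139 and 144 TPM against 29 and 52.4 TPM), and *Dot1l* itself had 77.2 and 78.1 TPM against 77.9 and 79.8 TPM. Among the same 8 regulators, *Suz12* was called higher and *Kdm6b* lower in BV+SC+ cells than in EpiSCs. Of all genes, 17.2% were called higher and 17.8% lower in that comparison.

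Some members share exon sequence with other genes, so that their reads may be divided. In the sorted tables *Hoxd3* and *Hoxd4* share 53.1% and 39.1% of their exon bases with *Gm28230*. In the other tables their largest overlap on the same strand was with each other, at 9.3% and 13.2%. The effect of this difference on their levels, and on the share of numbers 1 to 3 in sorted cells, was not tested. Antisense genes cover 52.9% of *Hoxb3*, 27.3% of *Hoxb2* and 35% of *Hoxa11*, and the strand setting of the counting was not given, so reads of these pairs cannot be told apart. *Hoxd9*, *Hoxd8*, *Hoxc9* and *Hoxc8* share none with another listed gene.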

How the data were processed

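The authors aligned reads to mm10 with Bowtie2 and RSEM (1.3.1 in the submitters' notes, for the unsorted and BV+SC+ sets) and deposited expected counts and TPM per gene. Expected counts were rounded and tested by the quasi-likelihood method of edgeR 4.0.16 under R 4.3.3, after filterByExpr and TMM scaling, within each gene list: c-Kit+ against c-Kit- (4 libraries), BV+SC+ against EpiSCs (5), and each single Day 3 library against EpiSCs in a fit of 7 libraries. Calls were at p under 0.05, unadjusted, and over 2-fold; adjusted p-values are Benjamini-Hochberg over all genes tested. Each SE was derived from the edgeR test, as the absolute log2 fold change divided by the square root of its F statistic. TPM was compared with a pseudocount of 1. Fits were also run on simulated counts, with a fixed spread and with changes placed only in genes above a count limit. Changes in HOX genes with low counts were therefore not covered. Symbols and exons came from GENCODE M21. DESeq2 1.42.0, RLE factors, other filters, a replicate block and leaving out each library were alternatives. Folds against a group at 0 used 3 counts per library as floor, and counting intervals were exact (95%). Values per library are given for members called in a comparison and for the 3 highest of each group, other members by counts and ranges, and several more by choice after their values were seen. Members and lists were chosen with earlier results of these data known. Single-cell, chromatin accessibility and histone mark samples were left out, and some genes are not reported here. Libraries held 1726038 to 18099059 counts.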

Additional observations from a re-analysis of the deposited data

How the results depend on the processing

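The number of HOX genes called higher in c-Kit+ cells went from 3 to 8 without a filter on low counts, to 1 under a minimum of 10 counts per library, and to between 3 and 6 when 1 library was left out (6 without c-Kit- replicate 1 and 5 without c-Kit- replicate 2). In BV+SC+ cells against EpiSCs, calls went from 0 higher and 0 lower to 3 higher and 1 lower without the filter, and to 1 higher and 1 lower in a fit on all 7 libraries. With at least 10 counts in every library no HOX gene was left in the comparisons with EpiSCs. Leaving out 1 EpiSC or BV+SC+ library gave 30 to 31 members called higher without SGC0946 and 23 to 30 with it, and no called result changed sign under any alternative run. The median change with SGC0946 was -1.48 with a pseudocount of 0.1, -1.33 without the filter and -1.33 on CPM. Detection at TPM over 1 in place of the floor gave 4 and 0 members in BV+SC+ cells, 8 in c-Kit- replicate 2 and 23 in c-Kit+ replicate 1. TPM rescaled to the genes in both lists gave HOX sums of 59.2 and 48.4 (c-Kit-), 217 and 191 (c-Kit+), 620.0 with and 1618 without SGC0946. With the replicate number as a block, 3 genes were called higher in c-Kit+ cells and none lower, and none could be tested in BV+SC+ cells; same-numbered sorted libraries had a correlation of 0.114 over 2 pairs, and those of EpiSCs and BV+SC+ cells -0.018, so the numbers are not shown to pair the libraries. Over all genes, at least 10 counts in every library gave 710 higher and 998 lower in c-Kit+ cells against 1195 and 1498, 1169 higher in BV+SC+ cells against 2023 (3089 with no filter, where the median log2 fold change of all genes was 0.29 against 0.05), 860 higher and 772 lower without SGC0946 against 1705 and 1223, and 767 and 611 with it against 1770 and 934 (1166 higher on adjusted p).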
